A study of Homo sapiens with 2 samples.

Results

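The nucleolar and spindle-associated protein NUSAP1 was immunoprecipitated, with the DNA bound near it, from AsPC1 cells, an established line of human pancreatic ductal adenocarcinoma, after fixation and shearing of the chromatin. There was 1 such library, and 1 library of input chromatin without antibody. No treatment or genotype was compared. Described here are the NUSAP1 summits, the highest points of the deposited peaks, that lay on chromosomes 1 to 22 within 1 kb of the annotated start or end of a protein-coding gene. They numbered 383 of 8911 summits on these chromosomes (4.30%, 95% Wilson interval 3.90 to 4.74, which covers counting error only) and of 9043 in the whole list. Position alone chose them, so their height, width and sequence were not used in the choice.

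NUSAP1 binds and bundles microtubules of the mitotic spindle, is found in nucleoli between divisions, and carries a SAP domain, a fold known from DNA-binding proteins. Chromatin immunoprecipitation with sequencing (ChIP-seq) counts the DNA fragments that an antibody recovers with its protein. The start of a gene carries its promoter, where RNA polymerase II is loaded, and the promoters of broadly expressed human genes are often rich in the dinucleotide CpG. The end of a gene is where transcripts are cleaved and released. Comparing the starts and the ends of the same genes therefore sets promoters beside equally wide stretches of sequence next to the same genes.

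Promoter sequences of 5 genes with a summit just before the start are shown first, because they carry the letter patterns that recur below. They run from 250 bases before the start to 10 bases after it, 5′ to 3′ on the strand of the gene, from RefSeq (build GRCh38.p14). Capitals mark the letters CCGGAAGT (the core of sites for ETS-family activators), CCCGCCC (SP-family GC box), CCAAT (bound by NFY) or GCGCATGC (the core of sites for NRF1), on either strand. TTC21B had the largest fold enrichment over background among genes with a known strand. The MRPL16, SF3A3, SEC13 and MRPL3 promoters hold the ETS letters.
TTC21B, chr2:165953767-165954026, minus strand: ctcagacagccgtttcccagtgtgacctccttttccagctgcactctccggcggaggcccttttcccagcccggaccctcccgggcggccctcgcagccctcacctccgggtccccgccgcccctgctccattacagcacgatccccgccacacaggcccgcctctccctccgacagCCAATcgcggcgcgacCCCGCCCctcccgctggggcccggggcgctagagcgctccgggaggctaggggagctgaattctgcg
MRPL16, chr11:59810769-59811028, minus strand: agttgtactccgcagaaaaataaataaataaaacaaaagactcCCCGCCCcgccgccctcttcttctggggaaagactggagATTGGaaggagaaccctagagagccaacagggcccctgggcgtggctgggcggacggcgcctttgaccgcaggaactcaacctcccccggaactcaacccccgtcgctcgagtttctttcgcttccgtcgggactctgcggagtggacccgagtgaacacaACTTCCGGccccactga
SF3A3, chr1:37990013-37990272, minus strand: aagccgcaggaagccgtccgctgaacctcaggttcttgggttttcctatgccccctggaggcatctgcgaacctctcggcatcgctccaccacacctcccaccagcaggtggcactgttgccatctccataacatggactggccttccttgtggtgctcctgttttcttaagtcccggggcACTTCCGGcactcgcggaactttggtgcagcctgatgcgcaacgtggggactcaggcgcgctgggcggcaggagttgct
SEC13, chr3:10321103-10321362, minus strand: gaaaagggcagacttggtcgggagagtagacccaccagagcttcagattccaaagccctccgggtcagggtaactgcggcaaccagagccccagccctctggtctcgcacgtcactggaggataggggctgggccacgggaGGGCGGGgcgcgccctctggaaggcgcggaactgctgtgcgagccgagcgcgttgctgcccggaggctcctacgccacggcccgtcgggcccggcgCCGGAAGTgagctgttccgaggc
MRPL3, chr3:131502962-131503221, minus strand: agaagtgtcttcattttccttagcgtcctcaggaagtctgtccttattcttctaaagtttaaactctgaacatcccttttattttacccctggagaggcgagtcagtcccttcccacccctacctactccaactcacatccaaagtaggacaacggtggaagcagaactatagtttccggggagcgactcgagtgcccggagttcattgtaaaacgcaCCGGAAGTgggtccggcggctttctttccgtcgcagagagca
The UBAC2 and OR9Q1 promoters show the range of composition. UBAC2 has 12.7 CpG per 100 bases and 2 overlapping matches to the NRF1 letters. OR9Q1, an olfactory receptor gene, has 0.667 CpG per 100 bases and none of the capitalised patterns.
UBAC2, chr13:99200604-99200863, plus strand: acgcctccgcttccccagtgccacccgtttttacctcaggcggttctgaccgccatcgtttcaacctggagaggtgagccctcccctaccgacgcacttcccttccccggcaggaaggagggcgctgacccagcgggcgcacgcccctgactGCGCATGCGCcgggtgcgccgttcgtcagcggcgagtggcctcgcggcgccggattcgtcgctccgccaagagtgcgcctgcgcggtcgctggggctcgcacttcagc
OR9Q1, chr11:58023631-58023890, plus strand: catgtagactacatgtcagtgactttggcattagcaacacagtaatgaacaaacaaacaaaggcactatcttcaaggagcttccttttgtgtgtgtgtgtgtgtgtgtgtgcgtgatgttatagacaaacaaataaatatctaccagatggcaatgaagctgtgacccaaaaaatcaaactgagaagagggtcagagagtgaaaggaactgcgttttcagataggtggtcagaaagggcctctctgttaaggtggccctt

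Summits gathered close to gene starts, and far fewer lay close to gene ends. The strand was known for 15101 of the 19126 autosomal protein-coding genes, each giving 1 start and 1 end, the outermost ones annotated. Within 1 kb there were 238 summits at starts and 97 at ends, of which 13 were at both. Within 250 bp there were 113 at starts and 19 at ends, a ratio of 5.95. Within 100 bp the numbers were 53 and 5. Starts thus held 85.6% of the summits counted at starts or ends within 250 bp (95% Wilson interval 78.6 to 90.6). The remaining 61 summits lay only near genes whose strand was not in the promoter table used here.

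The surplus was narrow. From 250 bp before to 250 bp after a start, the density was 212 and 260 summits per kb of the 15101 starts laid over each other. From 1 to 5 kb it was between 36 and 52 per kb before the start, and between 41 and 51 after it. Around ends, the density was 40 and 36 per kb in the 250 bp before and after, and between 47 and 64 per kb from 1 to 5 kb away. Within 250 bp of the end the density was thus below that range. Farther beyond the end it was above it, with 80 per kb (20 summits) from 250 to 500 bp and 72 per kb (18 summits) from 500 to 750 bp. From 750 to 1000 bp beyond the end it was 44 per kb, and from 250 to 500 bp before the end 32. These bins are 250 bp wide and hold few summits, 10 and 9 next to the end. Whether they differ from the range by more than counting error was not tested. Downstream of the start the decline was slower. There were 88 summits per kb (22 summits) from 750 to 1000 bp after the start and 20 per kb (5 summits) at that distance before it. Only the outermost start of each gene was counted, so any other start of the gene lies on the downstream side. A summit at LINGO1 and one at PHF3 lay 1 and 13 bp before such starts, 699 and 679 bp inside the outermost ones. The part of inner starts in the slower decline was not tested.

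**Figure D1:**
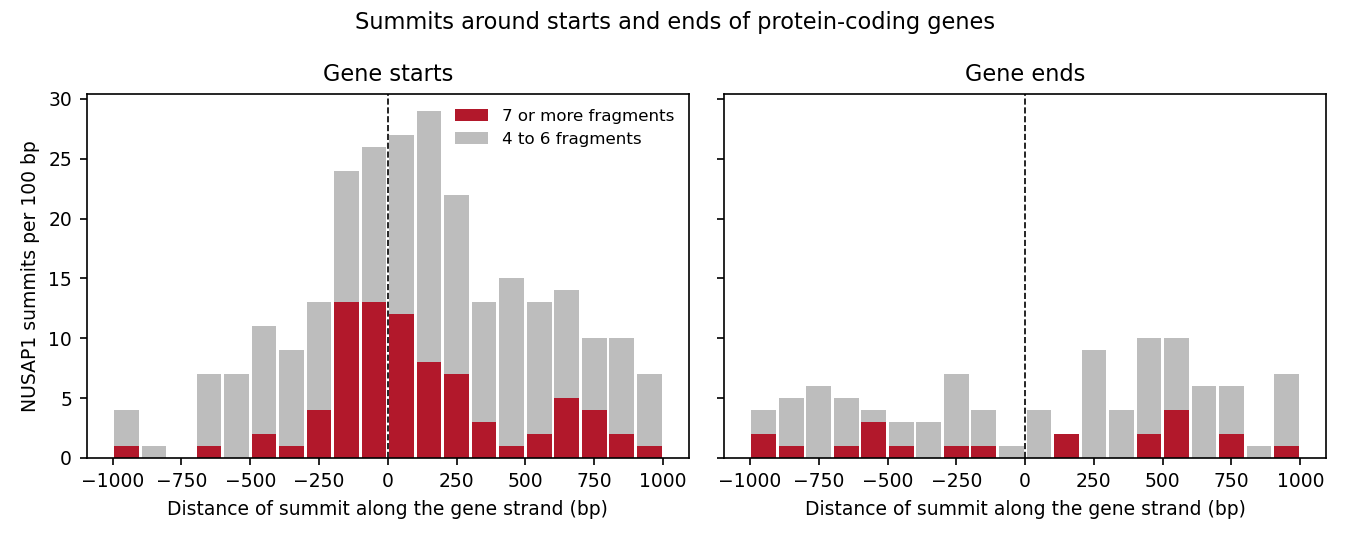
NUSAP1 summits per 100 bp (vertical axis) by distance along the strand of the gene (horizontal axis, bp, negative values upstream) for starts (left) and ends (right) of 15101 protein-coding genes, with summits of 7 or more fragments in red and of 4 to 6 in grey. The counts peak around the start, with 113 summits within 250 bp, and stay low around the end, with 19.

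Summits resting on more fragments were more strictly at starts. The number of fragments at a summit was worked out from the deposited fold enrichment and p. Of the 383 summits, 103 rested on 7 or more fragments (26.9%, interval 22.7 to 31.5), against 11.9% of all autosomal summits and 11.2% of the summits elsewhere. For summits within 250 bp of a start the share was 40.7% (interval 32.1 to 49.9, 46 of 113). For summits at ends only it was 14.6% (8.57 to 23.9, 12 of 82). Within 250 bp, the ratio of starts to ends rose from 3 at 4 fragments (15 and 5 summits) to 4.33 at 5, 6.50 at 6 and 11.5 at 7 or more (46 and 4). Within 100 bp there were 25 summits of 7 or more fragments at starts and 0 at ends. The intervals of the share at starts for 4 fragments (53.1 to 88.8%) and for 7 or more (81.2 to 96.8%) overlap.

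**Figure D2:**
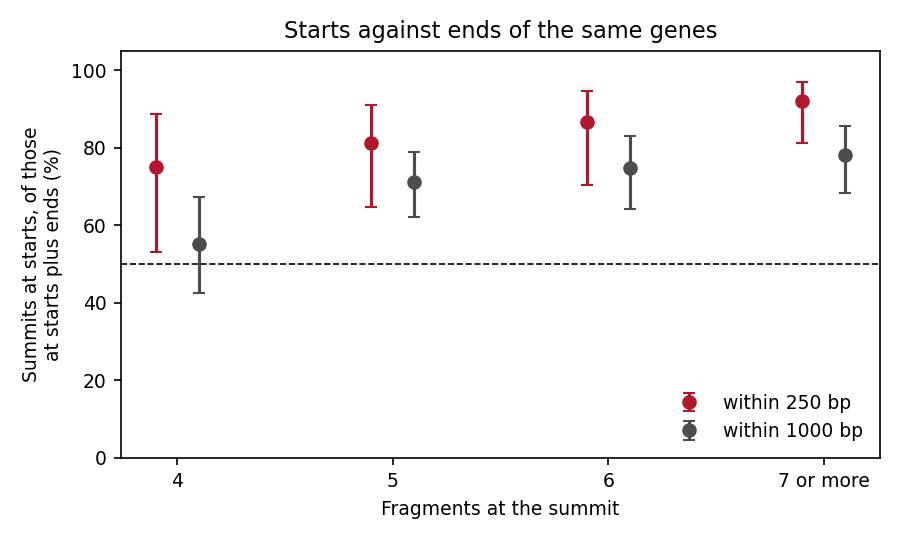
Share of summits at starts among those at starts or ends of the same genes (vertical axis, %, with 95% Wilson intervals) by the number of fragments at the summit (horizontal axis), within 250 bp in red and 1000 bp in grey, with a dashed line at equal numbers. Within 250 bp the share runs from 75% at 4 fragments to 92% at 7 or more.

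The caller's background moved with position and was higher at starts. Its median was 1.13 fragments at summits within 250 bp of a start, 0.970 at summits at ends only and 0.906 at summits elsewhere. Because the list admits summits by p, listed summits on a higher background need more fragments, so the 2 quantities are tied. Within a background of 0.7 to 0.9 fragments, 5 of 27 start summits (18.5%, interval 8.18 to 36.7) and 5.77% of the 4126 summits elsewhere had 7 or more fragments. Between 1.1 and 1.5 the shares were 44.4% (16 of 36) and 21.6%. Between 1.5 and 2.1 they were 76.9% (10 of 13, 49.7 to 91.8) and 52.5% (42.8 to 61.9), and the intervals overlap. Fold was tied to background as well, since fewer listed summits on a higher background reached a large fold. Without regard to background, a fold of at least 4 was reached by 8.09% of the gene-end summits, near the 9.2% of all autosomal summits, by 15.9% (18 of 113, interval 10.3 to 23.8) of those within 250 bp of a start, and by 4 of the 82 at ends only. Within a background of 0.7 to 0.9, it was reached by 7 of 27 start summits (25.9%, interval 13.2 to 44.7) and by 14.9% (13.8 to 16.0) of the 4126 elsewhere, so the intervals overlap. Between 0.9 and 1.1, it was reached by 4 of 27 (14.8%, 5.92 to 32.5) and 4.74% (3.99 to 5.63). Between 1.1 and 1.5, it was reached by 5 of 36 (13.9%, 6.08 to 28.7) and 2.88% (2.16 to 3.83). In both of these bands the start summits' share was the higher and its interval did not reach that of the summits elsewhere. Between 1.5 and 2.1, a fold of at least 4 was reached by 2 of 13 (15.4%, 4.33 to 42.2) and 3.96% (1.55 to 9.74), and the intervals overlap. The median fold was 3.03 at gene ends and 3.01 elsewhere. The part of the background in the counts was not tested beyond these values.

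Single summits were mostly weak. The caller's q was under 0.05 at 12 of the 383 (3.13%, interval 1.80 to 5.40), against 1.25% of all autosomal summits, and 304 (79.4%) had q of 0.5 or more. Of the 12, 6 lay at a start, all within 250 bp of it, 2 at an end and 4 at genes without a strand in the table. With 1 library, the q-values compare these reads with the caller's background and not replicates of an experiment.

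Of the 12, the 6 at starts belonged to genes of quite different function. TTC21B, whose product belongs to the retrograde intraflagellar transport machinery of cilia, had 13 fragments on a background of 1.27, 158 bp before its start (fold 6.15, q 2.93e-05). MRPL16, of the large subunit of the mitochondrial ribosome, had 10 on 0.977, 29 bp before its start (fold 5.56, q 0.00158). LMNB1, the gene of the nuclear lamina protein lamin B1, had 10 on 1.13, 241 bp after its start (fold 5.16, q 0.00604). At the divergent genes POLDIP2, whose product interacts with DNA polymerase delta, and VMA12, an assembly factor of the vacuolar proton pump, the shared summit had 10 on 1.15 (fold 5.12, q 0.00672). It lay 141 bp inside POLDIP2 and 261 bp before VMA12, so the POLDIP2 start was the nearer. B4GALT7, a galactosyltransferase that builds the linker of proteoglycan chains, had 17 fragments, but on a background of 3.56 (fold 3.95, q 0.00765, 92 bp before the start). At FAM43A there were 12 on 1.90, 174 bp after the start (fold 4.49, q 0.0158). LOC124909474 starts near the same summit, 852 bp from it.

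The other 6 were at ends or at genes without a strand in the table. At IFI44, an interferon-induced gene, the summit lay 552 bp before the end (8 fragments on 0.737, q 0.0128). At SRPRB, a subunit of the receptor for the signal recognition particle, it lay 481 bp beyond the end (8 on 0.850, q 0.0368). Both thus rested on 8 fragments each, and the nearest start in the promoter table was over 10 kb away, at 13695 bp for IFI44 and 23240 bp for SRPRB. UNC5B, a netrin receptor gene, had the largest fold of the set, with 24 fragments on 1.19, just outside the gene (fold 11.4, q 2.23e-18). The shared summit of SHARPIN and MAF1 had 8 fragments, that of MRPL21 and IGHMBP2 had 14, and MKRN2 had 12. The last 2 of these stood on a raised background of 2.85 and 2.12 fragments.

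**Figure D3:**
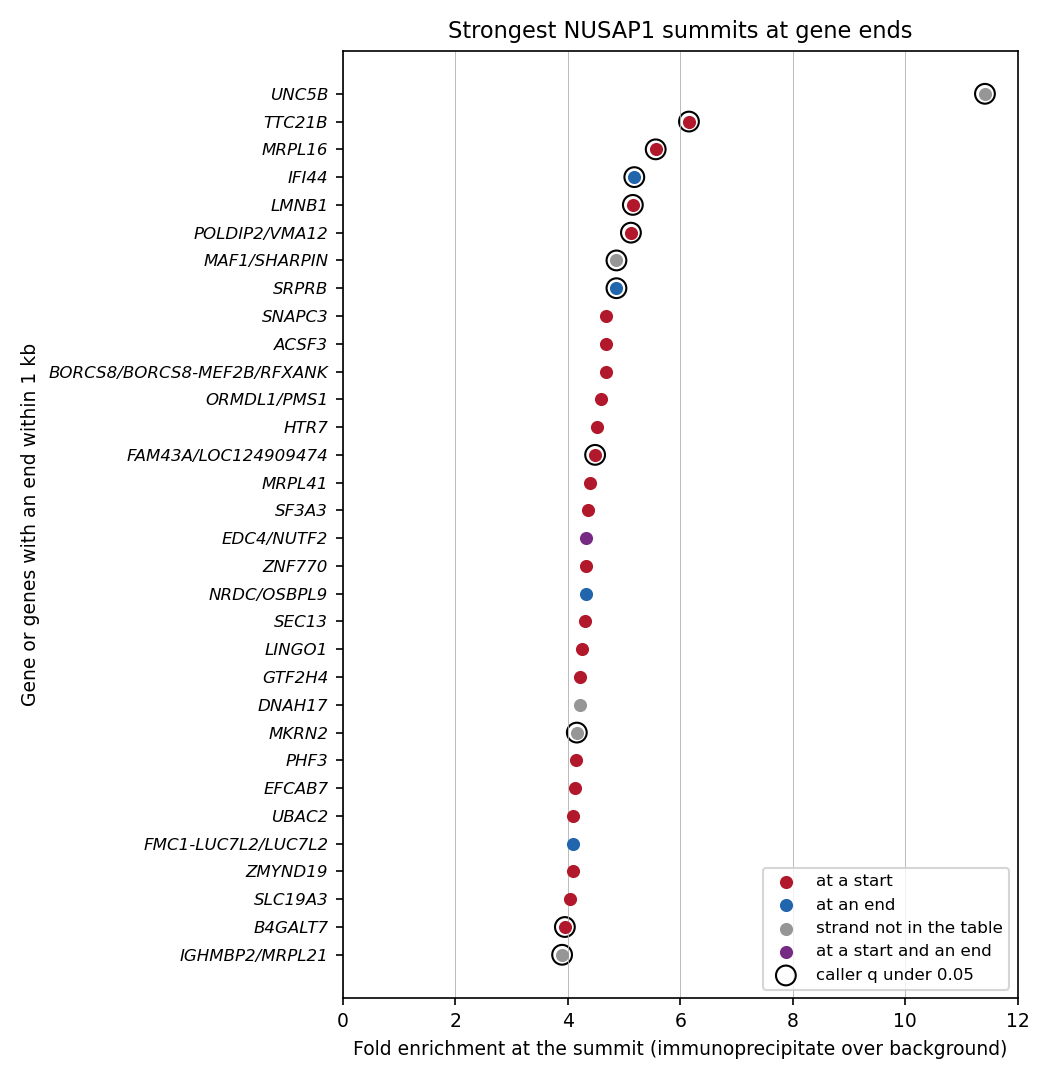
Fold enrichment at the summit (horizontal axis) of the 12 gene-end summits with q under 0.05 (circled) and the next 20 by fold, each named by the gene or genes with an end within 1 kb (vertical axis) and coloured by position. UNC5B stands apart at 11.4, the others lie between 3.90 and 6.15, and most are at starts.

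The next 20 summits by fold, from 4.03 to 4.68 with q between 0.0635 and 0.418, were again mostly at starts. ACSF3, a mitochondrial malonyl-CoA synthetase gene, and SNAPC3, a subunit of the snRNA-activating complex, had 7 fragments each on the lowest background, 45 and 258 bp before their starts. MRPL41, of the mitochondrial ribosome, had its summit 2 bp before the start (fold 4.39). SF3A3, of the U2 splicing particle, and SEC13, which serves in the COPII vesicle coat and the nuclear pore, had 8 fragments each, 78 and 38 bp before their starts. GTF2H4, of the transcription and repair factor TFIIH, had 11 fragments on 1.84, 101 bp before its start (q 0.0635). UBAC2, ZNF770, EFCAB7, SLC19A3 and ZMYND19 also had theirs upstream of the start, between 5 and 488 bp away. Those of HTR7, LINGO1 and PHF3 lay inside the gene, between 205 and 698 bp from the outermost start. The LINGO1 summit lay 1 bp before another annotated start of that gene, 699 bp inside the outermost one. At EDC4, which acts in removal of the messenger RNA cap, the summit 65 bp after the start was also 550 bp beyond the end of NUTF2, the import factor of Ran. The NRDC and OSBPL9 genes converge, and theirs lay near both ends (fold 4.32). DNAH17 has no strand in the table.

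Divergent pairs, 2 genes that start within 1 kb of each other on opposite strands, shared summits. There were 23 summits within 1 kb of both starts of such a pair, which served 25 pairs, since BORCS8 with its BORCS8-MEF2B readthrough and NUP62 with IL4I1 each count as 2 partners of 1 gene. By gene, 50 of 2096 genes of annotated pairs had a summit at their start (2.39%, interval 1.81 to 3.13) and 214 of the 13005 other genes (1.65%, 1.44 to 1.88). The intervals overlap. A gene of a pair also receives summits that lie at its partner. Counted by pair, 25 of 1063 (2.35%) had a summit. At the pair of PMS1, a mismatch repair gene, and ORMDL1, a regulator of sphingolipid synthesis, whose starts are 111 bp apart, the summit lay 14 bp inside PMS1 and 125 bp before ORMDL1 (fold 4.58, 8 fragments). RFXANK, an activator of major histocompatibility class II genes, and BORCS8, of the complex that positions lysosomes, start 106 bp apart and shared a summit 13 bp inside RFXANK (fold 4.67). At INTS14, of the Integrator complex, and SLC24A1 the summit lay between both starts (11 fragments on 2.14, fold 3.83). So did those of the kinetochore gene NUF2 with RGS5 (fold 3.52) and of CAPZA1, an actin capping subunit, with ST7L (fold 3.46). NELFB, of the factor that holds RNA polymerase II near the start, with CIMIP2A had a fold of 3.43, and TYW5 with MAIP1, whose starts overlap by 174 bp, had 3.71.

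Promoters with a summit were rich in CpG. Sequence was taken for 1 promoter per gene, 250 bases before to 50 after the start nearest the outermost one. The median CpG count was 7.33 per 100 bases over all 15101 promoters (quartiles 2.67 and 10.7). It was 9.83 (7.33 and 12.3) over the 122 promoters with a gene-end summit within 250 bp. For the 55 with a summit of 7 or more fragments there it was 10.7 (7.67 and 12.3). At least 5 CpG per 100 bases were found in 65.8% of all promoters, in 91.0% of the 122 (interval 84.6 to 94.9) and in 53 of the 55 (96.4%, 87.7 to 99.0). The exceptions were MAIP1 and RACK1, a ribosome-associated scaffold gene, at 4.67 each. The 55 promoters lay at 46 distinct summits and some share sequence, but the intervals count each promoter separately. Only the share with the ETS letters, given below, was also counted by summit. Genes with a summit only at their end had promoters like the whole set, with a median of 7.67 and 66.0% at 5 or more.

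Read the other way, the share of promoters with a summit differed between CpG-poor and CpG-rich ones. A summit within 250 bp was found at 6 of 2941 promoters under 2 CpG per 100 bases (0.204%, interval 0.0935 to 0.444) and at 1 of 1587 from 2 to 4 (0.0630%). It was found at 9 of 1443 (0.624%) from 4 to 6, at 23 of 2134 (1.08%) from 6 to 8, at 22 of 2401 (0.916%) from 8 to 10, and at 61 of 4595 (1.33%, 1.03 to 1.70) from 10 upward. Above 6 the intervals overlap, so no further rise was detectable. With 7 or more fragments, 0 of the 2941 promoters under 2 CpG per 100 bases had a summit, which allows a share of up to 0.102%, and 0 of the 1587 from 2 to 4, which allows up to 0.189%. The olfactory receptor promoter shown above is one of the few CpG-poor cases (6 fragments, fold 3.84, q 0.418). GC content moved along, with a median of 62.7% over all promoters and 67.3% over the 122, and how the yield of reads depends on GC was not tested.

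**Figure D4:**
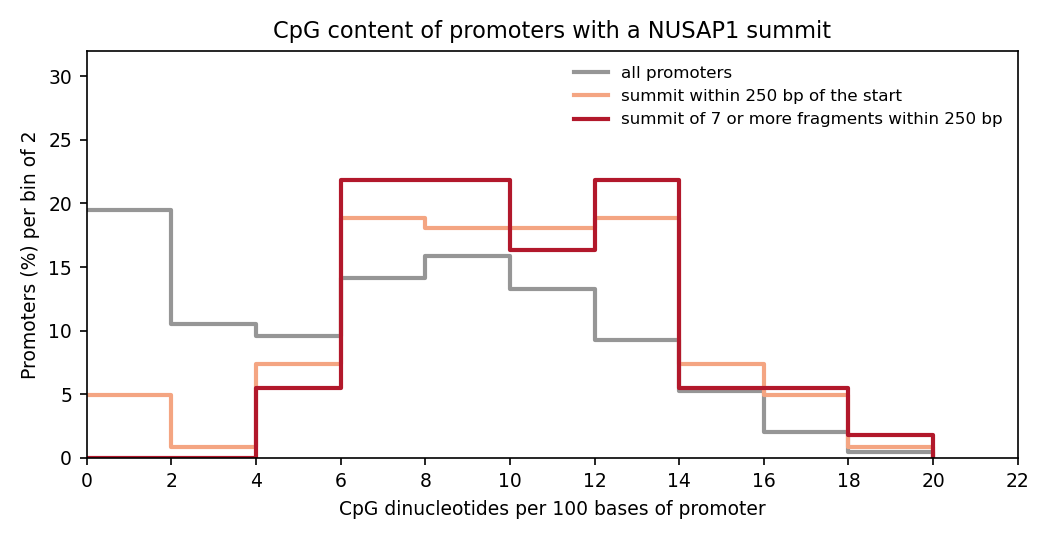
Share of promoters (vertical axis, % per bin of 2) by CpG dinucleotides per 100 bases (horizontal axis) for all 15101 promoters (grey), the 122 with a gene-end summit within 250 bp of the start (orange) and the 55 with a summit of 7 or more fragments there (red). The grey line has a second mode below 2, with 19.5% of promoters, where the orange line holds 4.92% and the red line 0.

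Among 11 letter patterns searched on both strands, the ETS letters CCGGAAGT were found in 6.29% of all promoters, in 14.8% of the 122 with a summit within 250 bp (interval 9.54 to 22.1) and in 12 of the 55 with 7 or more fragments (21.8%, 12.9 to 34.4). Those 12 genes share 10 summits, and by summit the share was 21.7% (10 of 46, 12.3 to 35.6). CpG-rich promoters hold these letters more often: they occurred in 8.90% of the 9935 promoters with at least 5 CpG per 100 bases, and in 12 of the 53 such promoters with a summit of 7 or more fragments (22.6%, 13.5 to 35.5). The genes were MRPL16, POLDIP2, SF3A3, EDC4, SEC13, MRPL3, APMAP, ZMPSTE24, LZIC with NMNAT1, and NME1 with its NME1-NME2 readthrough. Their summits were of unlike strength, and the caller's q was under 0.05 only at MRPL16 and POLDIP2. From MRPL16 to APMAP the folds lay between 3.30 and 5.56. At ZMPSTE24, LZIC with NMNAT1, and NME1 they lay between 2.55 and 2.87, on raised backgrounds of 1.98 to 2.14. In SEC13, SF3A3 and MRPL3 the letters lie within the printed stretch before the start, and in MRPL16 they reach the first base of the gene. At promoters of genes with a summit only at the end they were found in 6 of 97 (6.19%). Over the 258 promoters of genes with a summit within 1 kb of the start, the share was 10.9% (28, interval 7.62 to 15.2). That interval includes the 8.90% of CpG-rich promoters.

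The TATA box letters TATAAA were less frequent at promoters with a summit than over all promoters. They occurred in 9.83% of all promoters and in 4.29% of the CpG-rich ones. Of the 122 with a summit within 250 bp, 2 held them (1.64%, interval 0.451 to 5.78), FAM25A among them. Of the 55 with 7 or more fragments, 0 did, which allows up to 5.45%. The interval and that limit both include 4.29%, so a share below that of CpG-rich promoters was not detectable. The GC box letters CCCGCCC were in 50% of the 122 (interval 41.3 to 58.7) and 56.4% of the 55, against 44.4% of all and 61.4% of CpG-rich promoters. CCAAT was in 30.3% of the 122 (22.9 to 39.0) and 36.4% of the 55, against 36.1% of all and 34.8% of CpG-rich promoters. It was in 28.3% (23.1 to 34.1) of the 258 promoters of genes with a summit within 1 kb of the start. The NRF1 letters GCGCATGC were in 6.56% of the 122 and 3 of the 55 (5.45%), against 4.19% of all and 6.12% of CpG-rich promoters. The YY1 letters AAGATGGC were in 4.10% of the 122 and 1 of the 55 (1.82%), against 3.87% of all and 5.19% of CpG-rich promoters. The ZNF143 letters ACTACAATT were rare, in 0.470% of all promoters and 0.614% of CpG-rich ones. They were found in 2 of the 122 (1.64%, 0.451 to 5.78) and in 0 of the 55, which allows up to 5.45%. Of the 258, 5 held them (1.94%, 0.831 to 4.46). Of the 122, CACGTG (the E-box) was found in 9.84%, against 8.71% of all promoters and 10.7% of CpG-rich ones. TGACGTCA (the cyclic AMP response element) was in 3.28%, against 2.62% and 3.59%. TGANTCA (AP-1) was in 4.92%, against 5.64% and 2.97%, and CTCGCGAG (BANP) in 0.820%, against 1.54% and 2.24%. GOLPH3 and XRN2 held the cyclic AMP element, CAPZA1 the YY1 letters, GYG1 and ZBTB1 an E-box, and IFTAP the ZNF143 letters. A match is a string of letters and not a measured binding site.

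By function, the genes with a summit within 1 kb of an end (435 of 19126, 2.27%) were spread over many groups. Mitochondrial ribosomal protein genes had 6 of 77 (7.79%, interval 3.62 to 16.0), namely MRPL16, MRPL41, MRPL21, MRPL35, MRPL3 and MRPS6. MRPL3 had 8 fragments 68 bp before its start (fold 3.33) and MRPL35 had 9 (fold 3.76). Most lists are small and their intervals wide. Apart from this list, the transcription machinery and the olfactory receptors, every interval includes the 2.27% of all genes. For the transcription machinery the lower bound, 2.43%, was just above it. Many lists were compared, chosen with earlier results of these data known, and no set test was run. An interval that misses 2.27% therefore does not set a group apart. Transcription machinery genes had 7 of 141 (4.96%, 2.43 to 9.89), all 6 with a known strand at the start: SNAPC3 and its partner subunit SNAPC5, GTF2H4 and GTF2F1, INTS14, and POLR2H, a subunit shared by the nuclear RNA polymerases. Among DNA repair genes, PMS1 and the double-strand break genes RAD50 and RAD54L had a summit (folds 4.58, 3.62 and 3.93), all inside the gene within 250 bp of the start.

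Mitosis and spindle genes, the setting in which NUSAP1 itself works, had 5 of 113 (4.42%, interval 1.90 to 9.94), all within 1 kb of a start. These were NUF2 (6 fragments), the polo-like kinase genes PLK2 (10 fragments on 2.14, fold 3.51) and PLK4 (4 fragments), and 2 tubulin genes. The tubulin genes were TUBA1A (4 fragments) and TUBB (5 fragments, 970 bp after its start). Only PLK2 had 7 or more fragments. Nuclear lamina and pore genes had 2 of 35 (LMNB1 and NUP62), and cilium and centrosome genes 2 of 80 (TTC21B and, at its end, CEP20). Vesicle traffic genes had 9 of 238 (3.78%), and BORCS8 and its BORCS8-MEF2B readthrough, which share 1 summit at the start, both count. VPS37B and RAB27A had theirs at the end, and RAB1A has no strand in the table. Solute carriers had 13 of 372 (3.49%), led by the thiamine transporter SLC19A3. Translation factors and tRNA synthetases had 4 of 102, with EIF4G1, the scaffold of the cap-binding complex, 27 bp after its start and EEF1A1 at its end. Cytosolic ribosomal protein genes had 3 of 80 (RPL4 and RPL6 at the end, RPL35 at the start). Chromatin regulators had 4 of 103, among them HDAC1, 503 bp before its start, and KMT2D, 924 bp beyond its end, with 5 fragments each. Replication-dependent histone genes had 3 of 70, mitochondrial import and carrier genes 2 of 67, respiratory chain genes 2 of 102 and splicing genes 2 of 118.

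The remaining lists had shares under the 2.27% of all genes, as did the splicing (1.69%) and respiratory chain genes (1.96%), and most of their intervals include it. Signalling kinases had 0 of 131, which allows up to 2.29%, and glycolysis and lactate genes 0 of 36, which allows up to 8.33%. Ubiquitin and proteasome genes had 5 of 384 (1.30%, interval 0.557 to 3.01) and zinc finger factors 11 of 553 (1.99%). Among genes of restricted expression, olfactory receptors had 3 of 391 (0.767%, 0.261 to 2.23), keratin genes 1 of 149, and taste receptor, defensin and interferon alpha genes 1 of 86. That last one was TAS1R1, 916 bp from a summit that lies 122 bp after the start of NOL9. The upper bound for olfactory receptors was just under the 2.27% of all genes.

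Summits at ends and at no start numbered 82. Their largest folds after IFI44 and SRPRB were at NRDC with OSBPL9, LUC7L2 with its FMC1-LUC7L2 readthrough (4.10, 654 bp beyond the end), PRAMEF20 (3.97) and CTSC, the gene of cathepsin C (3.93, 540 bp beyond). None of the 82 lay within 1 kb of another protein-coding start of the promoter table, and 1 lay within 1 kb of the start of a long non-coding RNA gene. Of the whole set, 74 summits (19.3%) were also within 1 kb of an end of a long non-coding RNA gene.

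Most summits had a single gene, 329 of the 383, while 52 had 2 genes and 2 had 3. Only 4 genes had 2 summits: ZNF770 (folds 4.32 and 2.83), PHF3 (4.14 and 3.63), ZKSCAN2 (3.83 and 2.81) and CCDC85B (3.23 and 2.87). Peak width had a median of 216 bp, against 199 bp elsewhere, and 42.3% of the peaks were at that smallest width, against 51.4% elsewhere. The limit of 1 kb did not separate tall from low summits. Just inside it were UGGT1 (998 bp, fold 3.08), PHOSPHO1 (997 bp, 3.35) and CHAF1A (996 bp, 2.93), and just outside SLC39A13 (1008 bp, 4.06), GLO1 (1011 bp, 3.22) and BZW1 (1022 bp, 2.87).

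The share of genes with a summit differed between chromosomes in the way other summits did. It was highest on chromosome 3 (40 of 1066 genes, 3.75%, interval 2.77 to 5.07), chromosome 5 (3.54%) and chromosome 2 (3.35%). The lowest shares were on chromosome 8 (6 of 715, 0.839%, 0.385 to 1.82) and chromosome 4 (7 of 770, 0.909%). Across 22 chromosomes of this 1 library, the share had a Pearson r of 0.69 and a Spearman rho of 0.70 with the density of summits away from gene ends. Both come from the same reads, so this is a description. Chromosome 11 had the densest other summits (5.86 per Mb) and 2.15% of its genes with a summit. The part of all summits that lay at gene ends was largest on gene-dense chromosome 19, at 16.8%, and smallest on chromosome 18, at 1.45%. DNA copy number was not measured here.

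**Figure D5:**
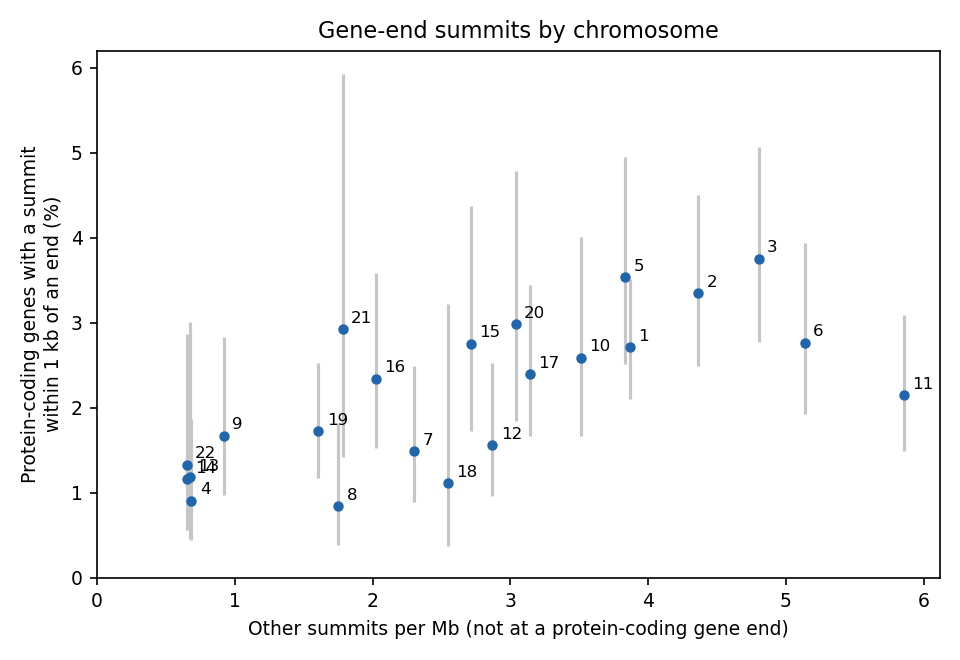
Share of protein-coding genes with a summit within 1 kb of an end (vertical axis, %, with 95% Wilson intervals) against summits elsewhere per Mb of the span of genes (horizontal axis), each point 1 of 22 autosomes. Chromosomes 4, 13, 14 and 22 lie at the lower left, with at most 1.33% of genes, and chromosomes 2, 3 and 5 at the top.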

How the data were processed

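NUSAP1 ChIP-seq and input of AsPC1 cells were made once each, and only the peak list of the NUSAP1 library was used. The submitters' processing notes name MACS2 2.1.0 as peak caller, Bowtie 1.1.2, Trimmomatic 0.33, bcl2fastq 2.17 and the build hg38; settings and control are not given in the sources used here. Per peak, the deposited values were the fold enrichment (a ratio to background), -log10 p, -log10 q, the summit offset and a score. The deposited score was -log10 p times 10 without its decimals and was not used. Read totals were not part of the list, so depth is given as fragments per summit.

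Fragment number and background were found as the pair of values that gives both the deposited fold, with 1 added to each, and the deposited -log10 p under a Poisson model. All 9043 summits were solved within 0.001, as were 500 of 500 simulated ones. Whether the background came from the input library is not stated. Genes came from a RefSeq table of GRCh38.p14, and strand and sequence from its promoter table, which held 361 of the 435 genes with a summit. In a simulation, 200 of 200 planted summits were assigned to their start. Promoter sets use 1 start per gene, that nearest the outermost.

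Members, gene lists (symbol patterns) and motifs were chosen with earlier results of these data known. Genes named are those with q under 0.05, the next 20 by fold, up to 4 per list, 8 divergent pairs, the 3 on each side of the 1 kb limit, genes with more than 1 summit, up to 3 per motif and up to 6 at ends only. Other names (members beyond 4 in a list, all genes with the ETS letters, RACK1) were chosen after their values were seen. The count for the DNA repair list is not reported here. With 1 library there is no replicate and no test between samples, and intervals (95% Wilson) cover counting error only. Where a count was 0, the share it allows is 3 divided by the number of genes or promoters, which is not the Wilson limit. Alternatives were limits on q, fold, fragments and background, windows of 500 bp and 2 kb, overlap in place of the summit and merged peaks. Software: Python (3.11.15) with scipy (1.17.1), pandas (2.3.3), numpy (2.4.6), and figures by matplotlib (3.10.9).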

Additional observations from a re-analysis of the deposited data

How the results depend on the processing

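No paired analysis was possible because there is 1 immunoprecipitation library and no file of the input was used. Stricter limits keep fewer summits by construction: q under 0.05 left 12 summits and 16 genes, 1 of them at a divergent pair, with a median fold of 4.99, 10.8% of such summits at gene ends and 83.3% of these within 250 bp. A fold of at least 4 left 31 summits (3.78% of such summits) and 40 genes, 3 at divergent pairs, with 67.7% within 250 bp and 84.6% nearer a start than an end. With 7 or more fragments there were 103 summits (9.74%) and 124 genes, 11 at divergent pairs, a median fold of 3.52, 57.3% within 250 bp and 82.9% nearer a start. The values as deposited were 39.9% within 250 bp and 72.7% nearer a start. A window of 500 bp gave a share of 2.93% and 78.4% nearer a start, and 2 kb gave 6.44% and 65.2%. With q under 0.05, 75% were nearer a start (interval 40.9 to 92.9). All these shares nearer a start leave out summits that lay only near genes without a known strand. Overlap in place of the summit, merged peaks and a low background moved none of the values computed for the whole set beyond the interval or 1.5 times, but on a low background the translation genes with a summit fell from 4 to 2, and by overlap the kinases went from 0 to 1. Taking any start of the promoter table in place of gene ends, an alternative chosen after seeing the data, gave 295 summits. For the gene lists, to which the settings were applied after seeing the data, 74 counts moved by more than 1.5 times and 102 did not. Depth limits single summits: the median was 5 fragments, and 79.4% had q of 0.5 or more.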

Other observations

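Some summits stood at starts that the outermost gene coordinates miss. Of the 8528 summits outside the set, 26 (0.305%) lay within 250 bp of another start of a protein-coding gene in the promoter table. Of these, 9 (34.6%) rested on 7 or more fragments, against 11.2% of the 8528. Among the 9, BZW1, JMJD1C and NEMP2 had folds of only 2.55 to 2.87, on a raised background of 2.14. The tallest was at C17orf75, 48 bp before the start, with 10 fragments on a background of 1.08 (fold 5.30, q 0.00384). NPY4R, a receptor gene for neuropeptide Y family peptides, had a fold of 4.68 (24 bp after the start), MCC had 4.49, and AKAP7, an anchoring protein of protein kinase A, had 4.31. CD63, a tetraspanin of late endosomes, had 9 fragments 37 bp before the start (fold 4.29, q 0.105), and SQSTM1, an autophagy receptor gene, had 10 on a background of 2.41. UBTF, which activates ribosomal RNA transcription in the nucleolus, had 5 fragments 57 bp before its start (fold 3.24, q 0.779). These genes were named after their values were seen.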
